A study of Mus musculus with 16 samples.

Results

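Kdm7a was knocked down in the medial prefrontal cortex (mPFC) of mice that received saline, and the RNA of these mice was compared with that of saline mice carrying a control virus. The comparison takes 8 of the 16 samples of the series, chosen by their labels: the 5 Kdm7a-shRNA + Saline mice and the 3 Ctrl + Saline mice. The gene table lists 26625 entries, of which 19069 are labelled as known genes of the reference annotation. Known lncRNA genes are a separate class and are not among them. Of the 19069 known genes, 14162 passed a filter on low counts and were tested. The remaining 4907 known genes had too few reads for a test. The animals were male C57BL/6 mice aged 8 to 10 weeks. An adeno-associated virus was injected into the mPFC, carrying EGFP under the CMV promoter and, under the U6 promoter, either an shRNA against Kdm7a or a control shRNA (NC). The U6 promoter is active in every cell type that takes up the virus, so the virus design does not limit the knockdown to neurons. In both groups saline took the place of morphine during place conditioning, and the tissue was taken on the seventh day of withdrawal. RNA was read as full-length cDNA on a Nanopore sequencer. The question put to these samples is what lowering Kdm7a does to gene expression in the absence of the drug.

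KDM7A is a histone demethylase with a finger that binds an active promoter mark and a Jumonji domain that removes methyl groups from the histone H3 lysines whose methylation accompanies silent chromatin. It is a close relative of PHF8 and PHF2. In brain tissue, RNA levels also follow which cells are present: neurons, astrocytes, oligodendrocytes, microglia and blood each bring their own transcripts.

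The 3 Ctrl + Saline mice, called control replicates 1 to 3, gave total counts of 7440027, 9768835 and 7081172 reads. The 5 Kdm7a-shRNA + Saline mice, called knockdown replicates 1 to 5, gave 9086090, 9123232, 9256317, 9122741 and 10279638 reads. Levels are given as normalized CPM, counts scaled to a common library total with TMM factors, which ran from 0.913 to 1.07. All 3 control factors were above 1 and all 5 knockdown factors were below it. The 33 listed genes of cortical excitatory neurons and layers were all detected, with a summed level of 2325, 2288 and 2240 normalized CPM in the 3 control mice and 1904, 1719, 1489, 2378 and 1534 in the 5 knockdown mice, and a list of striatal projection neuron genes summed to 292, 337 and 275 normalized CPM in the 3 control mice and 219, 395, 185, 271 and 388 in the 5 knockdown mice. The cortical label thus has its markers in every mouse, and these lists do not separate mPFC from other cortex.

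Knockdown replicates 1 and 4 stood apart from knockdown replicates 2, 3 and 5. Differences between mice of a group can be expressed as a chi-square per degree of freedom, which is near 1 when counting error alone is at work. It was between 8.33 and 9.59 for the 3 pairs among knockdown replicates 2, 3 and 5. The pair of knockdown replicates 1 and 4 gave 14.1, and the pairs across these sets gave 29.7 to 51.2. The 3 pairs of control mice gave 18.6 to 21.1. The same split showed in the myelin genes, whose summed level was 14428, 11827 and 8490 normalized CPM in the 3 control mice and 9388, 20533, 20041, 9902 and 19452 in the 5 knockdown mice. Knockdown replicates 1 and 4 were the low ones and lay within the range of the control mice, whereas knockdown replicates 2, 3 and 5 lay above it. Loci assembled by the authors held 10.8, 9.93 and 9.40% of the reads of the control mice and 10.2, 7.99, 8.15, 10.4 and 7.79% of those of the knockdown mice, and knockdown replicates 1 and 4 again resembled the control mice. The labels give no batch, dissection or sequencing date for any mouse.

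The target came down in every knockdown mouse. Kdm7a stood at 9.78, 9.08 and 9.41 normalized CPM in the 3 control mice and at 5.74, 4.95, 6.04, 6.07 and 4.92 normalized CPM in the 5 knockdown mice. All 5 knockdown values lay below all 3 control values, with no overlap. The group means were 9.42 ± 0.353 normalized CPM (SD, n = 3) in Ctrl + Saline and 5.55 ± 0.571 (SD, n = 5) in Kdm7a-shRNA + Saline, which is 1.70-fold lower (log2 fold change -0.76, SE 0.20, adjusted p = 0.0153, and 0.0533 without control replicate 3). Kdm7a (ENSMUSG00000042599, GRCm38 chr6:39136623-39206789, minus strand) was covered by 71 to 93 reads in a control mouse and 43 to 54 in a knockdown mouse. Without control replicate 3 the log2 fold change was -0.79. Among enzymes that act on the same histone lysines, 7.14% of the demethylases and 5.88% of the methyltransferases and Polycomb members were called lower. The share among all known genes was 2.98%. Called higher were 0% in both lists and 9.003% of all known genes. Of the 14 tested demethylases of H3K9 and H3K27, 1 fell, Kdm7a itself, and the median log2 fold change was -0.15. Of 17 methyltransferases of these lysines and Polycomb members, 1 fell (3 with library size alone, and 2 with a filter of 10 counts in every mouse, with known genes alone and with length offsets), Prdm2 (log2 fold change -0.73, adjusted p = 0.0112, and 0.0752 without control replicate 3), a zinc finger protein of the histone methyltransferase family.

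**Figure D1:**
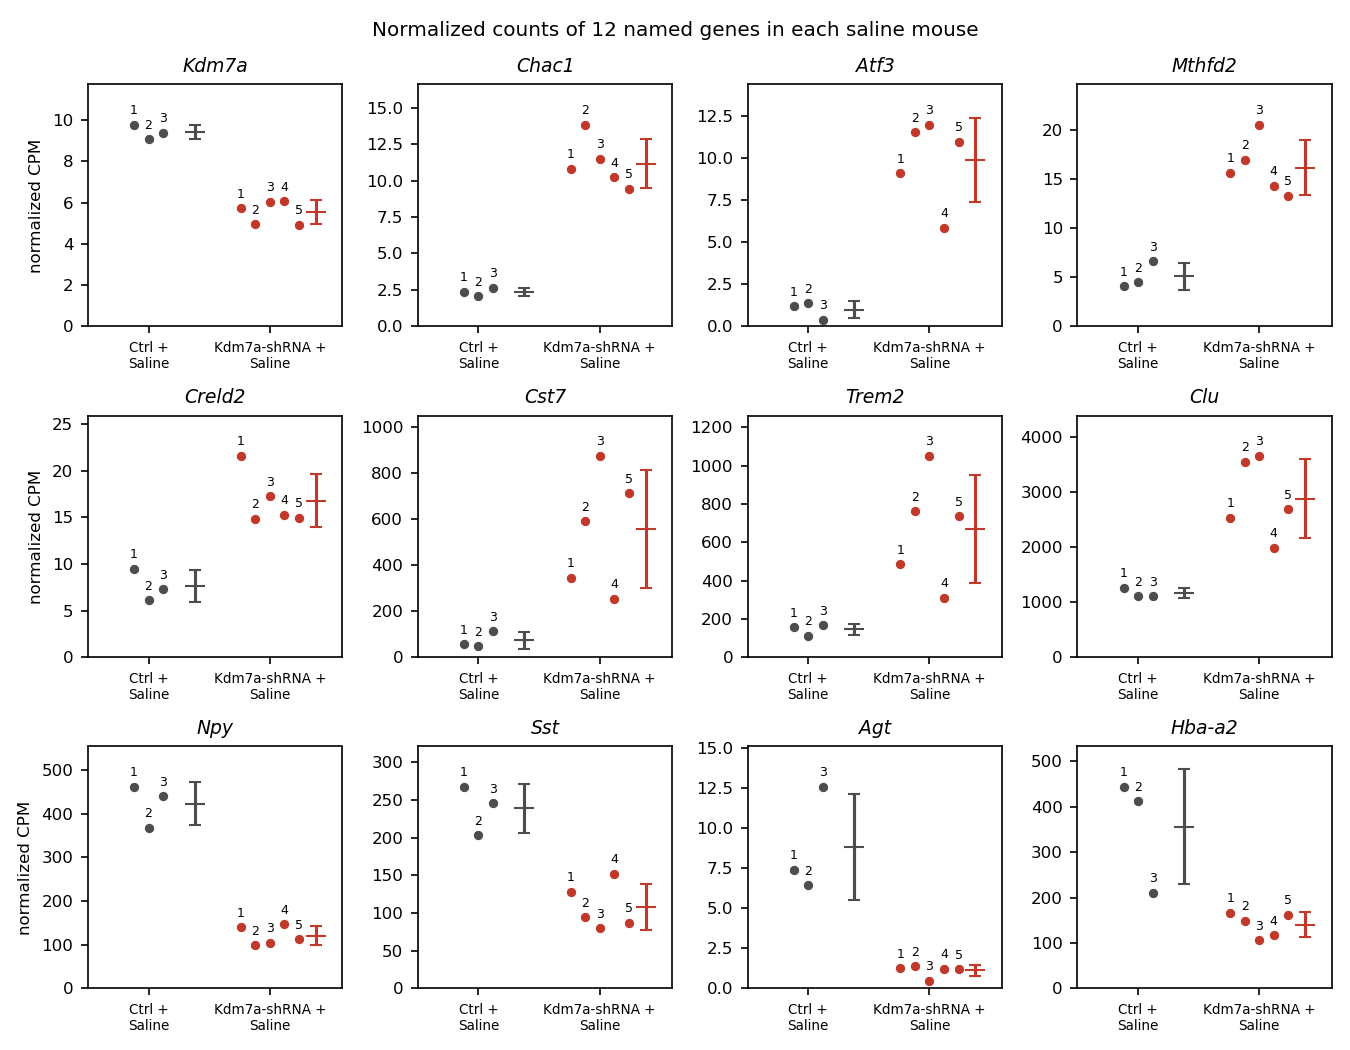
Normalized CPM of 12 named genes in each saline mouse, with control mice in grey and knockdown mice in red, replicate numbers beside the points, and the mean and SD of each group at the side. For all 12 genes every knockdown mouse lies on 1 side of every control mouse.

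Across the transcriptome more known genes rose than fell. Of the 14162 tested, 1275 were called higher and 422 lower in the knockdown mice, 9.003% and 2.98%, where a call needs an adjusted p below 0.05 together with a 1.5-fold change or more. Among the called genes 75.1% were higher. This lean depends on the scaling: with library size alone as the scale the counts were 879 higher and 745 lower, 54.1% higher, and the median log2 fold change of all tested genes moved from 0.01 to -0.12. With the assembled loci left out of the whole calculation the counts were 849 higher and 529 lower, 61.6% higher. The median log2 fold change was 0.10 over known genes, and 59.4% of them lay above 0. At least 2-fold changes were seen for 722 of the higher and 112 of the lower genes, and at least 4-fold changes for 128 and 11. The 2 groups of mice did not overlap in 1026 of the 1275 higher and 339 of the 422 lower genes, against 19.6% of all known genes. Control replicates 2 and 3 carried much of the weight of these counts. Without control replicate 1 there were 1131 higher and 497 lower genes, without control replicate 2 there were 664 higher and 230 lower genes, and without control replicate 3 there were 467 and 254. For 41 of the called genes, 1 of the groups had at most 3 reads in any mouse.

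**Figure D2:**
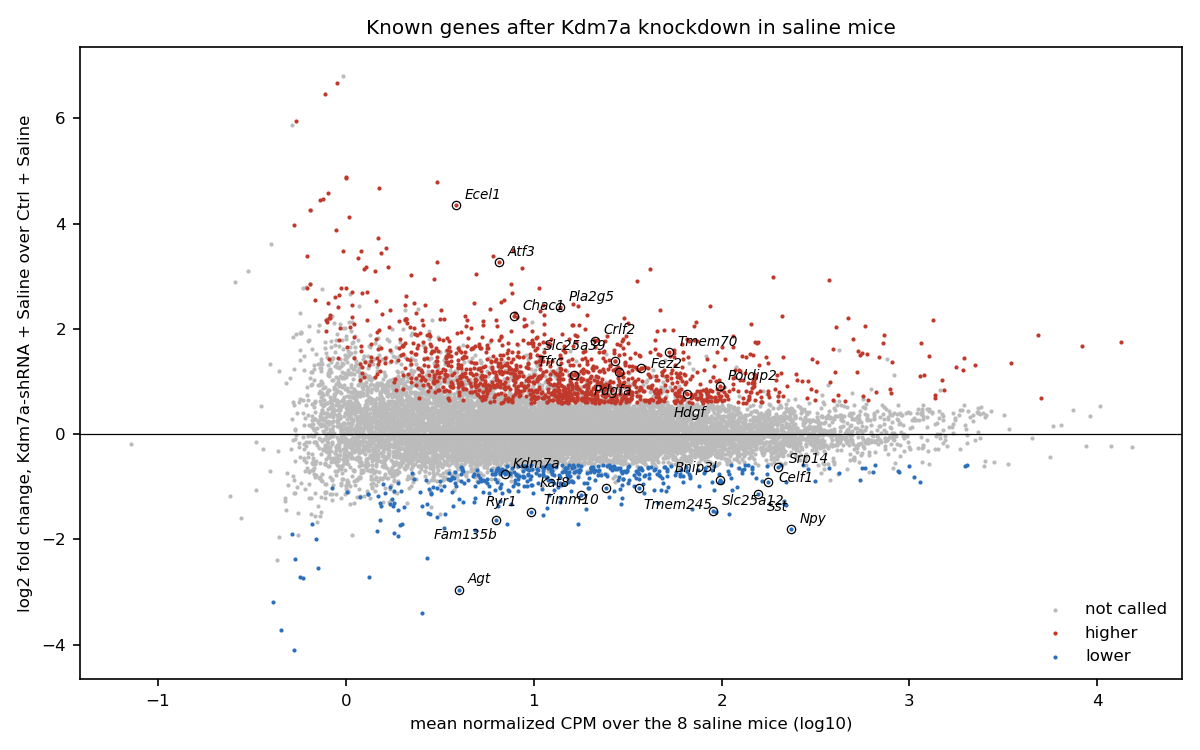
Log2 fold change of each tested known gene against its mean normalized CPM on a log10 scale, with genes called higher in red, lower in blue and the rest in grey. Kdm7a and the 12 genes of each direction with the smallest adjusted p are named.

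Among the 12 higher genes ranked first by adjusted p were stress genes, iron and glutathione carriers and signalling molecules. Atf3, a transcription factor switched on by cell stress, was 1 of these. Atf3 stood at 1.19, 1.37 and 0.397 normalized CPM in the 3 control mice and at 9.08, 11.5, 11.97, 5.85 and 11.0 normalized CPM in the 5 knockdown mice. Every knockdown mouse was above every control mouse, and knockdown replicate 4 was the lowest of the 5 (log2 fold change 3.27, SE 0.42, adjusted p = 0.000201). Ecel1, a neuronal metalloprotease of the endothelin-converting enzyme family, had 0 to 6 reads in a control mouse and 35 to 76 in a knockdown mouse. It stood at 0, 0.0976 and 0.795 normalized CPM in the control mice and at 7.24, 8.76, 4.98, 3.94 and 5.03 in the knockdown mice, so that its fold change rests on a handful of control reads (log2 fold change 4.35, SE 0.59, adjusted p = 0.000254, and log2 fold change 6.40 without control replicate 3). Tmem70, an assembly factor of the mitochondrial ATP synthase, rose from 23.7 to 69.8 normalized CPM (log2 fold change 1.56, adjusted p = 0.000235). Slc25a39, which brings glutathione into mitochondria, rose as well (log2 fold change 1.40, adjusted p = 0.000229). So did Tfrc, the transferrin receptor for iron uptake (log2 fold change 1.13, adjusted p = 0.000342), and Pla2g5, a secreted phospholipase (log2 fold change 2.41, adjusted p = 0.000345). Crlf2, a cytokine receptor chain, and Pdgfa, a growth factor for oligodendrocyte precursors, had log2 fold changes of 1.78 and 1.18. Fez2, a relative of a kinesin adaptor, and Poldip2, a partner of DNA polymerase delta found in mitochondria, had log2 fold changes of 1.26 and 0.91. Hdgf, a growth factor that also binds chromatin, had a log2 fold change of 0.75, of 0.68 with the assembled loci left out, and of 0.57 when offsets for transcript length were added as well, which is under the fold change needed. Length offsets were always run on known genes alone.

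The 12 lower genes ranked first by adjusted p took in precursors of secreted peptides, mitochondrial proteins and regulators of RNA and chromatin. Npy, the precursor of neuropeptide Y, had the smallest adjusted p of all lower genes (GRCm38 chr6:49822710-49829507). Npy stood at 461, 367 and 440 normalized CPM in the 3 control mice and at 140, 98.9, 104, 147 and 113 normalized CPM in the 5 knockdown mice. The knockdown mice were tightly grouped, all of them far below the control mice (log2 fold change -1.81, SE 0.17, adjusted p = 4.55e-05). Agt encodes angiotensinogen, a secreted precursor peptide that astrocytes make in the brain. Agt stood at 7.40, 6.44 and 12.6 normalized CPM in the 3 control mice and at 1.26, 1.38, 0.474, 1.24 and 1.21 normalized CPM in the 5 knockdown mice, again without overlap (log2 fold change -2.96, SE 0.39, adjusted p = 0.000224). Slc25a12 exchanges aspartate and glutamate across the inner mitochondrial membrane and fell from 150 to 54.5 normalized CPM (log2 fold change -1.46, adjusted p = 0.000675). Ryr1, a calcium release channel of internal stores, fell by a similar factor (log2 fold change -1.49, adjusted p = 0.000153). Fam135b fell too (log2 fold change -1.63, adjusted p = 0.000572). Kat8, a histone acetyltransferase, dropped to a mean of 12.2 normalized CPM (log2 fold change -1.16, adjusted p = 0.000381). Timm10, a chaperone of proteins entering mitochondria, and Bnip3l, a receptor for the removal of mitochondria, had log2 fold changes of -1.02 and -0.88. Celf1, a regulator of splicing, and Srp14, a part of the signal recognition particle, had log2 fold changes of -0.90 and -0.63. Tmem245, a membrane protein, stood at -1.02.

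Genes of 43 lists of pathways, cell types and complexes were then read together, 1197 tested genes in all, of which 174 rose and 59 fell. The median log2 fold change of each list kept its sign when size factors of the RLE method, library size alone, known genes alone or length offsets were used.

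**Figure D3:**
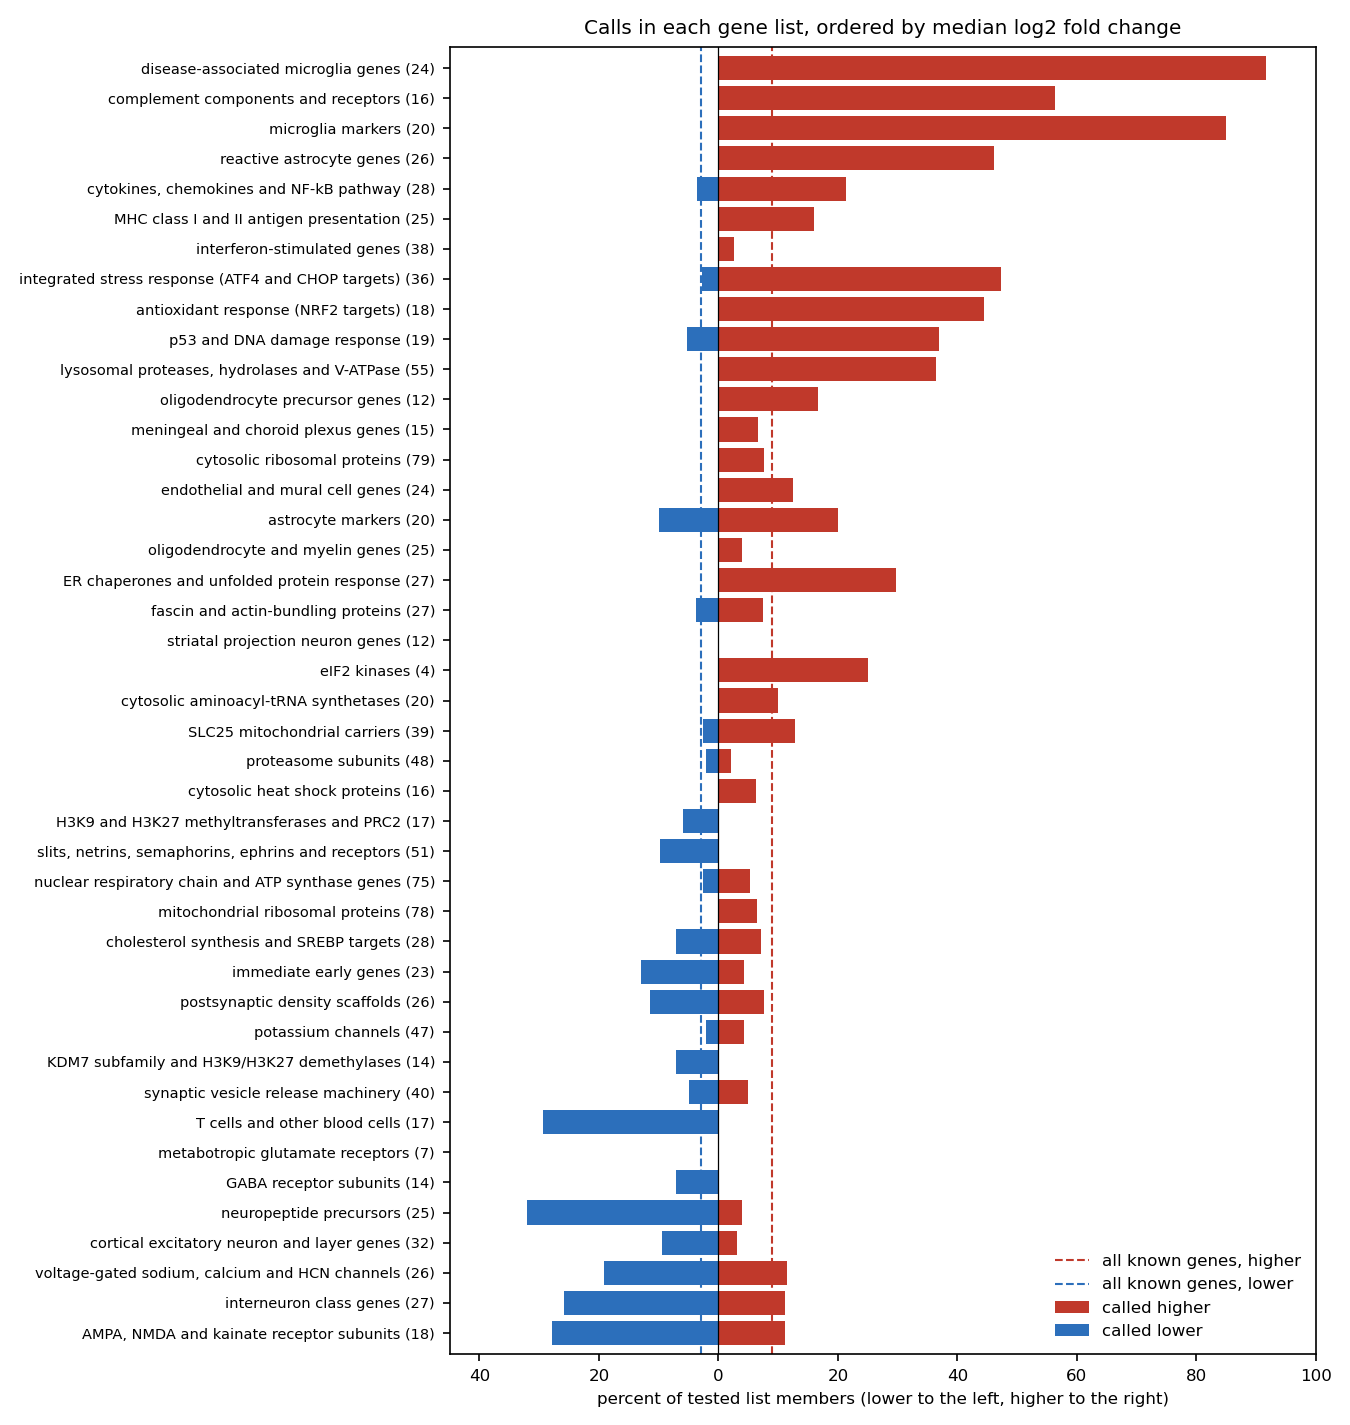
Percent of the tested members of each list called lower (blue, to the left) and higher (red, to the right), with the number tested in parentheses and the lists ordered by median log2 fold change. Dashed lines mark 9.003% and 2.98%, the shares among all tested known genes.

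Targets of the integrated stress response rose in part. Called higher were 47.2% of the tested members and lower 2.78%, beside 9.003% and 2.98% of all known genes. In this pathway kinases phosphorylate the initiation factor eIF2, translation slows, and the factors ATF4 and CHOP switch on genes for amino acid supply and redox balance. Of its 36 tested members 17 rose (10, 11 and 11 without control replicate 2 and knockdown replicates 2 and 3, respectively; 9 with a filter of 10 counts in every mouse, 11 with known genes alone and length offsets) and 1 fell (median log2 fold change 0.57). Chac1 stood at 2.38, 2.05 and 2.65 normalized CPM in the 3 control mice and at 10.8, 13.8, 11.5, 10.2 and 9.45 normalized CPM in the 5 knockdown mice, the groups far apart, with the control mice within a narrow band (log2 fold change 2.24, SE 0.25, adjusted p = 7.21e-05). Chac1 breaks down glutathione. Mthfd2 and Shmt2, mitochondrial enzymes of serine and folate metabolism, had log2 fold changes of 1.67 (adjusted p = 0.000491) and 1.72 (adjusted p = 0.000549). The member that fell was Cbs, which turns homocysteine into cystathionine (log2 fold change -0.86, adjusted p = 0.00351). Its groups overlapped. The count of lower members was 2 with library size alone, without control replicate 1 and without knockdown replicate 4. The summed level of the list was 712, 715 and 706 normalized CPM in the 3 control mice and 992, 1112, 1136, 885 and 1070 in the 5 knockdown mice. Every knockdown mouse was above the control mice, and knockdown replicate 4 was closest to them. Of the eIF2 kinases 25% were called higher, beside 9.003% of all known genes. Of the 4 kinases of eIF2, 1 rose, Eif2ak3, the kinase that senses unfolded protein in the endoplasmic reticulum (log2 fold change 0.80, adjusted p = 0.033, and 0.12, 0.131, 0.0723 and 0.0529 without control replicates 2 and 3 and knockdown replicates 1 and 2, respectively, also short of a threshold with library size alone, the 8 saline mice alone, known genes alone, length offsets and edgeR's exact test). Of 20 cytosolic aminoacyl-tRNA synthetases 2 rose (1 each without control replicate 2 and knockdown replicates 2 and 3; 1 with RLE size factors, library size alone, a filter of 10 counts in every mouse, the 8 saline mice alone, known genes alone, DESeq2 and edgeR's exact test), 10% beside 9.003% of all known genes, namely the alanine enzyme Aars (log2 fold change 0.59, adjusted p = 0.00193, with log2 fold change 0.58, 0.53, 0.57 and 0.56 without control replicates 1 and 3 and knockdown replicates 2 and 3, respectively, also short of a threshold with RLE size factors, library size alone, a filter of 10 counts in every mouse, the 8 saline mice alone, known genes alone, DESeq2 and edgeR's exact test) and the valine enzyme Vars (log2 fold change 1.02, adjusted p = 0.0144, and 0.0893 without control replicate 2).

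Promoters of the genes in these pathways were taken from RefSeq on GRCm38.p6, 250 bases before to 50 bases after each start, and both strands were searched. For the integrated stress response the letters were TGATGNAA, the shared element of CHOP and ATF4, which overlapped another of the searched motifs in 1 promoter. It occurred in 3.97% of all 32851 promoters, in a promoter of 2.95% of the 11028 tested genes that have one, and in 10 of the 30 tested list members with a promoter, 4 of them among the 14 called members with one. The promoters of Chac1, at chr2:119350992-119351291 on the plus strand, and Atf3, at chr1:191183284-191183583 on the minus strand, are shown because these are the list members with the smallest adjusted p, and capitals mark the element. Here the site of Chac1 lies at chr2:119351049-119351056, on the opposite strand to the gene, and begins 193 bases before the start. Likewise the site of Atf3 lies at chr1:191183436-191183443, on the opposite strand to the gene, and begins 110 bases before the start. A match describes the letters only, and binding was not measured. The lists of ATF4, CHOP and NRF2 targets were drawn up as such, so a high share of matches in them is no separate result. Within this list, called members held the element no more often than all members with a promoter. The same holds for the endoplasmic reticulum stress, CLEAR and cAMP response elements below, but not for the antioxidant element.
Chac1: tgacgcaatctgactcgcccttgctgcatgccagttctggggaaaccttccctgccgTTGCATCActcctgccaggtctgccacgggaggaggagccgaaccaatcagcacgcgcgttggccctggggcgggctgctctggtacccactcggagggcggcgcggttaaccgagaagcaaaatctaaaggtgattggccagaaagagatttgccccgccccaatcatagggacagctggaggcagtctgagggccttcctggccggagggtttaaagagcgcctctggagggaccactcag
Atf3: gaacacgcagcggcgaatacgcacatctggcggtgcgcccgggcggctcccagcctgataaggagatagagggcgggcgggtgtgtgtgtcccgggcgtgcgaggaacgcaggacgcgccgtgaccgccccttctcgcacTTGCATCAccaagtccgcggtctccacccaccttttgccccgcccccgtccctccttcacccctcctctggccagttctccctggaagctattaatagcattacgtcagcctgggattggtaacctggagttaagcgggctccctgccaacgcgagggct

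Folding factors of the endoplasmic reticulum rose in part. Called higher were 29.6% of the tested members, beside 9.003% of all known genes. Of 27 tested chaperones and unfolded protein response genes 8 rose (5 without control replicate 2) (median log2 fold change 0.35). Creld2, a protein of the endoplasmic reticulum induced by unfolded protein, showed it in every mouse. Creld2 stood at 9.52, 6.15 and 7.29 normalized CPM in the 3 control mice and at 21.6, 14.9, 17.3, 15.3 and 14.97 normalized CPM in the 5 knockdown mice. No knockdown mouse reached down to the control range, and knockdown replicate 1 was highest (log2 fold change 1.14, SE 0.19, adjusted p = 0.000917). Sdf2l1, a helper of the chaperone BiP, and Pdia3, an isomerase of disulphide bonds, had log2 fold changes of 1.91 and 1.47. Herpud1, which takes part in the removal of misfolded protein, stood at 0.84 (adjusted p = 0.00279). The element searched here is that of endoplasmic reticulum stress, CCAAT and CCACG 9 bases apart, on both strands; it overlapped another searched motif in 0 promoters. It occurred in 0.119% of all 32851 promoters, in a promoter of 0.172% of the 11028 tested genes that have one, and in 9 of the 22 tested list members with a promoter, 2 of them among the 6 called members with one. The promoter of Creld2, at chr15:88819396-88819695 on the plus strand, is shown because it is the called member with the smallest adjusted p and holds the element, in capitals. In it, the site of Creld2 lies at chr15:88819520-88819538, on the opposite strand to the gene, and begins 126 bases before the start.
Creld2: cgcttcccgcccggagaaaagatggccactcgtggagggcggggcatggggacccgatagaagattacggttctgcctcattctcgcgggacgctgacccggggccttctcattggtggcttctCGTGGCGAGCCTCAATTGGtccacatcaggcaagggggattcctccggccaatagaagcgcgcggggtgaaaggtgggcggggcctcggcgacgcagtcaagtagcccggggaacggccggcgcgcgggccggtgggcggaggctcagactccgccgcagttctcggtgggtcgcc

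Of 16 tested cytosolic heat shock proteins 1 was called, 6.25% beside 9.003% of all known genes (2 without knockdown replicate 4). It was Bag3, a co-chaperone that directs proteins to autophagy (log2 fold change 1.03, adjusted p = 0.0226, and 0.092, 0.0648, 0.0586, 0.0503 and 0.0503 without control replicates 1, 2 and 3 and knockdown replicates 2 and 5, respectively, also short of a threshold with length offsets). Among p53 and DNA damage genes, 7 of 19 tested members rose (3 each without control replicates 1 and 2; 4 with known genes alone, 3 with length offsets) and 1 fell (median log2 fold change 0.52). Phlda3, a p53 target that restrains the kinase AKT, and Cdkn1a, an inhibitor of the cell cycle, rose with log2 fold changes of 1.74 (adjusted p = 0.00443) and 0.87 (adjusted p = 0.00727), although the groups overlapped for both. Plk2, a kinase of activity-dependent synapse weakening, fell (log2 fold change -0.78, adjusted p = 0.00285). Of the p53 list 36.8% were called higher and 5.26% lower, beside 9.003% and 2.98% of all known genes.

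Antioxidant genes of the factor NRF2 rose in part: 8 of 18 tested members rose (5, 5, 4, 5 and 5 without control replicates 1, 2 and 3 and knockdown replicates 2 and 3, respectively; 5 with known genes alone, 4 with length offsets) (median log2 fold change 0.55). Called higher were 44.4% of the tested members, beside 9.003% of all known genes. Fth1 stood at 6206, 887 and 3375 normalized CPM in the 3 control mice and at 9868, 13042, 13199, 8028 and 11559 normalized CPM in the 5 knockdown mice. Fth1 is the heavy chain of ferritin, the iron store, and control replicate 2 was by far the lowest of the 8 mice (log2 fold change 1.67, SE 0.38, adjusted p = 0.00616). The log2 fold change of Fth1 was 2.34 without control replicate 1 and 1.22 without control replicate 2. Its reads may be shared with near-identical processed copies, so this level is uncertain. The light chain Ftl1, for which the same holds, had a log2 fold change of 1.02 (adjusted p = 0.00842, and 0.0503 without control replicate 3). Slc48a1, a transporter of heme, rose as well (log2 fold change 0.84, adjusted p = 0.00219). The summed level of the list, 8161, 2766 and 5287 normalized CPM in the 3 control mice and 12546, 16348, 16892, 10300 and 14778 in the 5 knockdown mice, came mostly from Fth1 in all mice but control replicate 2. Me1, the malic enzyme that supplies NADPH, stood at 15.5, 13.3 and 16.7 normalized CPM in the control mice and at 30.9, 22.8, 24.4, 25.6 and 23.6 in the knockdown mice, all of the latter higher (log2 fold change 0.75, SE 0.16, adjusted p = 0.00494). The antioxidant response element was searched as TGACNNNGC on both strands, and it overlapped another searched motif in 40 promoters. It occurred in 12.39% of all 32851 promoters, in a promoter of 16.6% of the 11028 tested genes that have one, and in 7 of the 13 tested list members with a promoter, 3 of them among the 5 called members with one. The promoter of Me1 at chr9:86695865-86696164 on the minus strand, 1 of the 2 in the table, is shown as that of the called member with the smallest adjusted p among those with the element, in capitals. There the site of Me1 lies at chr9:86695912-86695920, on the same strand as the gene, and begins 6 bases before the start, so that it runs across the start.
Me1: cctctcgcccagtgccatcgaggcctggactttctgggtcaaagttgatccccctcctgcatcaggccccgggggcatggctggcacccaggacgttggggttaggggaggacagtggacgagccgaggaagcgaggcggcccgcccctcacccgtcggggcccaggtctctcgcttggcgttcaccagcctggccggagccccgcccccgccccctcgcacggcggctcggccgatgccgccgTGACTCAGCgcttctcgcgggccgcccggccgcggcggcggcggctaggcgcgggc

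Most microglia markers rose. Called higher were 85% of them, beside 9.003% of all known genes. All 20 tested microglia markers lay above 0 and 17 rose (7, 3, 5, 10 and 10 without control replicates 1, 2 and 3 and knockdown replicates 3 and 5, respectively; 11 with library size alone and a filter of 10 counts in every mouse, 10 with known genes alone and length offsets), with a median log2 fold change of 1.36. Their summed level was 2583, 2316 and 3272 normalized CPM in the 3 control mice and 5939, 8541, 12639, 4292 and 10542 in the 5 knockdown mice. Every knockdown mouse was above every control mouse, with knockdown replicates 4 and 1 the lowest and knockdown replicate 3 the highest. The most abundant marker was Ctss, a lysosomal protease, at means of 942 and 2275 normalized CPM, and 0 of the markers were without reads in all mice. Trem2 is a lipid receptor of microglia. Trem2 stood at 156, 113 and 169 normalized CPM in the 3 control mice and at 487, 763, 1052, 310 and 735 normalized CPM in the 5 knockdown mice (log2 fold change 2.20, SE 0.49, adjusted p = 0.00594). Its partner Tyrobp, an adaptor that carries the signal inside the cell, had a log2 fold change of 2.16 (adjusted p = 0.00418). Selplg, a ligand of selectins, had a log2 fold change of 1.48 (adjusted p = 0.0072). Csf1r, the growth factor receptor microglia live on, had a log2 fold change of 1.46 (adjusted p = 0.0128, and 0.0535 and 0.0728 without control replicates 2 and 3, respectively). In bulk tissue a change in the number of cells of a type and a change in the RNA of each cell cannot be told apart.

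Genes of the disease-associated state of microglia, which appears around damage and lipid debris, were mostly called higher. Their share called higher was 91.7%, beside 9.003% of all known genes. Of 24 tested, 22 rose (12 and 13 without control replicates 2 and 3, respectively), and the median log2 fold change was 1.75. Cst7 stood at 57.1, 47.7 and 114 normalized CPM in the 3 control mice and at 345, 590, 873, 253 and 710 normalized CPM in the 5 knockdown mice. Cst7, an inhibitor of lysosomal proteases, followed the same order of mice as the microglia markers (log2 fold change 2.93, SE 0.62, adjusted p = 0.00436). Spp1, the secreted protein osteopontin, and the chemokines Ccl6 and Ccl3 had log2 fold changes of 2.98, 3.15 and 3.16. Ccl3 had only 3 to 21 reads in a control mouse, and its log2 fold change was 3.95 without control replicate 3. The summed level of the list was 21139, 7779 and 14645 normalized CPM in the 3 control mice and 33241, 48214, 64357, 27226 and 57158 in the 5 knockdown mice. Its most abundant gene was Apoe, the lipid carrier that astrocytes also make, at means of 5449 and 18237 normalized CPM. Control replicate 2 was the lowest mouse and control replicate 1 the highest control.

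**Figure D4:**
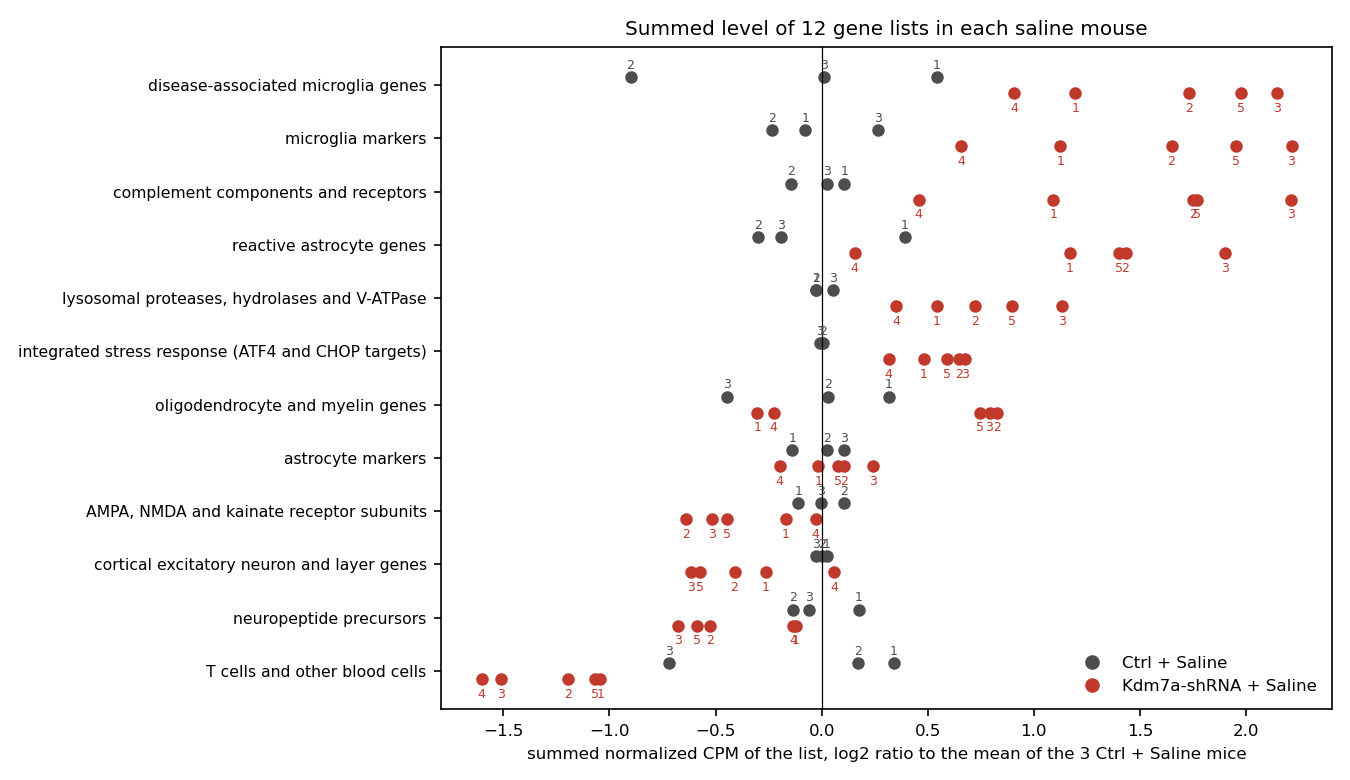
Summed normalized CPM of 12 lists in each saline mouse, as the log2 ratio to the mean of the 3 control mice, with control mice in grey and knockdown mice in red and replicate numbers beside the points. Knockdown replicates 1 and 4 lie closest to the control mice for microglial, complement and lysosomal genes, and apart from the other knockdown mice for myelin genes.

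Complement, the tagging system that microglia read at synapses and debris, moved with them. Of 16 tested components and receptors 9 rose (3, 4 and 1 without control replicates 1, 2 and 3, respectively), and the median log2 fold change was 1.48. Called higher were 56.25% of this list and 36.4% of the lysosomal genes read below, beside 9.003% of all known genes. C1qb, a chain of the starter molecule, stood at 146, 116 and 152 normalized CPM in the control mice and at 389, 575, 872, 272 and 740 in the knockdown mice, where the groups did not overlap (log2 fold change 2.04, SE 0.47, adjusted p = 0.00652). The protease C1ra had a log2 fold change of 1.71 (adjusted p = 0.0113, and 0.074 without control replicate 3). The receptor C3ar1 had a log2 fold change of 1.74 (adjusted p = 0.016, and 0.0638 and 0.0596 without control replicates 1 and 3, respectively). The summed level was 805, 677 and 760 normalized CPM in the 3 control mice and 1593, 2512, 3460, 1026 and 2543 in the 5 knockdown mice, with the knockdown mice in the same order as for the microglia markers, whose part in this result was not tested. Lysosomal genes rose in 20 of 55 cases (9, 4, 8 and 13 without control replicates 1, 2 and 3 and knockdown replicate 3, respectively), with a median log2 fold change of 0.50. Their summed level was 20911, 20867 and 22054 normalized CPM in the 3 control mice and 31002, 35150, 46712, 27120 and 39632 in the 5 knockdown mice. Hexa, an enzyme that breaks down gangliosides, and the protease Ctsl had log2 fold changes of 1.52 and 1.46. The glucuronidase Gusb rose too (log2 fold change 1.98, adjusted p = 0.0105, and 0.0533 without control replicate 2). Microglia hold many of these transcripts, and their part in the lysosomal result was not tested.

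The CLEAR element is known from promoters of lysosomal genes. It was searched by its core TCACGTGA, which reads the same on both strands and overlapped another searched motif in 41 promoters. It occurred in 0.974% of all 32851 promoters, in a promoter of 2.01% of the 11028 tested genes that have one, and in 7 of the 44 tested list members with a promoter, 2 of them among the 15 called members with one. Ctsd, an abundant lysosomal protease, is shown because it is the called member with the smallest adjusted p among those with the element, and it was chosen after its values were seen. Ctsd stood at 1364, 1530 and 2519 normalized CPM in the 3 control mice and at 4107, 6435, 10208, 3558 and 9026 normalized CPM in the 5 knockdown mice. The groups were separate, with knockdown replicates 3 and 5 highest (log2 fold change 1.89, SE 0.48, adjusted p = 0.0113, and 0.0521 without control replicate 2). Its promoter lies at chr7:142387778-142388077 on the minus strand. The site of Ctsd lies at chr7:142387919-142387926 and begins 99 bases before the start, and capitals mark it.
Ctsd: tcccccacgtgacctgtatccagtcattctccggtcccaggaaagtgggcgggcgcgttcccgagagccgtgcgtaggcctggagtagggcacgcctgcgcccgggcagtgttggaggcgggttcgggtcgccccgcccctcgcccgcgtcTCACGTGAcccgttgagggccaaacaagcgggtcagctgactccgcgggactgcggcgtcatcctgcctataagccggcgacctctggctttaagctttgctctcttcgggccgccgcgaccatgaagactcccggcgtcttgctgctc

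The other immune lists are to be read beside all known genes, of which 9.003% were called higher and 59.4% lay above 0. Called higher were 21.4% for cytokines, chemokines and the NF-kB pathway, 16% for antigen presentation and 2.63% for interferon-stimulated genes. Of 28 tested cytokines, chemokines and members of the NF-kB pathway 6 rose (3 each without control replicates 2 and 3; 1 with a filter of 10 counts in every mouse, 12 with the 8 saline mice alone, 13 with edgeR's exact test) and 1 fell. Ccl4, a chemokine of activated microglia, had a log2 fold change of 2.67 (adjusted p = 0.00469). Tlr3, a receptor for double-stranded RNA, rose too (log2 fold change 1.74, adjusted p = 0.00989). The member that fell was Il34, a neuronal ligand of the microglial growth factor receptor (log2 fold change -0.68, adjusted p = 0.0158, and 0.0503 and 0.0637 without control replicates 2 and 3, respectively). For antigen presentation by MHC molecules, 4 of 25 tested members rose (2, 0, 2, 2, 8 and 2 without control replicates 2 and 3 and knockdown replicates 2, 3, 4 and 5, respectively; 8 with the 8 saline mice alone and DESeq2, 7 with a replicate block, 2 with length offsets, 13 with edgeR's exact test), with 24 of the 25 above 0 (median log2 fold change 0.79). The class I gene H2-D1, which shares sequence with its neighbours, had a log2 fold change of 1.45 (adjusted p = 0.0449, and 0.157, 0.171, 0.0644, 0.0737, 0.096 and 0.0675 without control replicates 2 and 3 and knockdown replicates 1, 2, 3 and 5, respectively, also short of a threshold with library size alone, a filter of 10 counts in every mouse, known genes alone and length offsets), and the peptide loading factor Tapbp had a log2 fold change of 1.26 (adjusted p = 0.0169, and 0.0543 and 0.0975 without control replicates 2 and 3, respectively). Interferon-stimulated genes lay mostly above 0, 35 of 38, but 1 was called (2 with the 8 saline mice alone, and 7 with edgeR's exact test, and 5 without knockdown replicate 4), the antiviral membrane protein Ifitm3 (log2 fold change 1.43, adjusted p = 0.0488, and 0.0996, 0.14, 0.145, 0.0871, 0.12 and 0.0779 without control replicates 1, 2 and 3 and knockdown replicates 2, 3 and 5, respectively, also short of a threshold with RLE size factors, library size alone, a filter of 10 counts in every mouse, known genes alone and length offsets). Their summed level was 2697, 2310 and 2786 normalized CPM in the 3 control mice and 2580, 4722, 7066, 1568 and 4387 in the 5 knockdown mice, so knockdown replicates 2, 3 and 5 were high, knockdown replicate 1 was within the control range and knockdown replicate 4 was below it.

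In the list of T cells and other blood cells, the red cell members fell. It had 17 tested members, of which 5 fell, and 5 fell as well whichever of the 8 mice was left out. Called lower were 29.4% of the list, beside 2.98% of all known genes. The other 12 were not called, although edgeR's exact test called 1 higher and 6 lower in the whole list; 7 of the 17 lay above 0, and the median log2 fold change was -0.15. Among the uncalled, Ptprc, a phosphatase of white blood cells and microglia, had a log2 fold change of 1.13 (adjusted p = 0.115), and Cd3e, a chain of the T cell receptor complex, -0.11; both were chosen after their values were seen. Hba-a2 stood at 444, 412 and 211 normalized CPM in the 3 control mice and at 167, 149, 106, 117 and 162 normalized CPM in the 5 knockdown mice. This alpha globin gene did not overlap between the groups (log2 fold change -1.34, SE 0.31, adjusted p = 0.00695). Hba-a1 is a near-identical copy, so reads of these genes cannot be assigned with certainty (log2 fold change -1.33). The beta globin Hbb-bt and Alas2, the first enzyme of heme synthesis in red cells, had log2 fold changes of -1.51 and -1.79. The whole list summed to 1636, 1454 and 785 normalized CPM in the 3 control mice and 627, 563, 453, 426 and 617 in the 5 knockdown mice, with Hba-a2 the most abundant gene and control replicate 3 the lowest control mouse. Whether blood left in the tissue differed between the groups was not tested.

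Astrocyte markers moved in both directions, and genes of reactive astrocytes rose in part. Of 20 tested markers 4 rose (2 with known genes alone and length offsets) and 2 fell (1 with a filter of 10 counts in every mouse), and their summed level was 14705, 16453 and 17395 normalized CPM in the 3 control mice and 16013, 17418, 19128, 14104 and 17093 in the 5 knockdown mice, with overlapping groups. Their most abundant gene was Aldoc, a glycolytic enzyme. Of these markers 20% were called higher and 10% lower, beside 9.003% and 2.98% of all known genes. Clu, the chaperone clusterin, was the marker with the smallest adjusted p among those that rose. Clu stood at 1266, 1110 and 1106 normalized CPM in the 3 control mice and at 2532, 3548, 3656, 1986 and 2682 normalized CPM in the 5 knockdown mice. Its groups were clear of each other (log2 fold change 1.31, SE 0.21, adjusted p = 0.000821). Mlc1, a membrane protein of astrocyte endfeet, also rose (log2 fold change 1.02, adjusted p = 0.00325). Agt was among the markers that fell. Among reactive astrocyte genes 12 of 26 rose (6, 5, 7, 7 and 7 without control replicates 2 and 3 and knockdown replicates 2, 3 and 5, respectively; 4 with a filter of 10 counts in every mouse, 7 with known genes alone, 6 with length offsets), with a median log2 fold change of 1.08. Of the reactive list 46.2% were called higher, beside 9.003% of all known genes. Vim, an intermediate filament, had a log2 fold change of 2.43 (adjusted p = 0.00342). S1pr3, a receptor for sphingosine phosphate, and Cd14, a coreceptor for endotoxin that microglia also carry, had log2 fold changes of 2.38 and 1.58. Steap4, a metal reductase, had 0 to 4 reads in a control mouse, which leaves its log2 fold change of 3.44 imprecise (5.003 without control replicate 1 and 2.76 without control replicate 2). The summed level of the reactive list was 2095, 1298 and 1397 normalized CPM in the 3 control mice and 3590, 4309, 5955, 1777 and 4221 in the 5 knockdown mice, and its most abundant gene, H2-D1, is not particular to astrocytes. Knockdown replicate 4 lay within the control range.

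In the remaining non-neuronal lists the shares called higher, to be read beside the 9.003% of all known genes, were 4% for oligodendrocyte and myelin genes, 16.7% for oligodendrocyte precursor genes, 12.5% for endothelial and mural cells and 6.67% for meninges and choroid plexus. For oligodendrocyte and myelin genes, 1 of 25 tested members rose (2 with a replicate block and without knockdown replicate 4), and Olig1, a transcription factor of the lineage, was the called gene (log2 fold change 1.04, adjusted p = 0.038, and 0.161, 0.157, 0.0562, 0.0851, 0.0686 and 0.0639 without control replicates 2 and 3 and knockdown replicates 1, 2, 3 and 5, respectively, also short of a threshold with library size alone, a filter of 10 counts in every mouse, known genes alone and length offsets). For oligodendrocyte precursor genes, 2 of 12 tested members rose (1, 1, 0, 1, 0, 0 and 1 without control replicates 1, 2 and 3 and knockdown replicates 1, 2, 3 and 5, respectively; 0 with library size alone, a filter of 10 counts in every mouse and known genes alone, 1 with no filter, the 8 saline mice alone and length offsets): Olig1 again, and the matrix proteoglycan Vcan (log2 fold change 0.82, adjusted p = 0.0426, and 0.185, 0.105, 0.0948 and 0.076 without control replicates 1 and 3 and knockdown replicates 2 and 3, respectively, also short of a threshold with library size alone, no filter, a filter of 10 counts in every mouse, the 8 saline mice alone and known genes alone). For endothelial and mural cells, 3 of 24 tested members rose (0, 0 and 1 without control replicates 2 and 3 and knockdown replicate 3, respectively; 1 with library size alone and known genes alone); the tight junction gene Cldn5 had a log2 fold change of 1.41 (adjusted p = 0.0154, and 0.0782 and 0.0993 without control replicates 2 and 3, respectively), and its log2 fold change was 2.36 without control replicate 1. For meninges and choroid plexus, 1 of 15 tested members rose (2 with the 8 saline mice alone, with a replicate block, with DESeq2 and with edgeR's exact test, and 3 without control replicate 1), namely the collagen Col1a1 (log2 fold change 1.39, adjusted p = 0.0338, and 0.0809, 0.165, 0.0652, 0.0642 and 0.0504 without control replicates 2 and 3 and knockdown replicates 1, 2 and 3, respectively, also short of a threshold with known genes alone). For striatal projection neurons, 0 of 12 tested members were called in edgeR's quasi-likelihood test, with 1 higher and 1 lower at an unadjusted p under 0.05 and 0 higher and 0 lower in DESeq2. Among all known genes 30.2% had an unadjusted p under 0.05. The count of lower members in the striatal list was 1 with library size alone, with a replicate block, with edgeR's exact test, without control replicate 1 and without knockdown replicate 5. Gng7, a G protein subunit and their most abundant member in the control mice, had a log2 fold change of -0.61 (adjusted p = 0.0692), which misses the threshold.

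Several neuropeptides and interneuron genes fell. Among neuropeptide precursors, 1 of 25 tested members rose (2 each without control replicate 1 and knockdown replicate 5; 0 with a filter of 10 counts in every mouse, 2 with a replicate block and DESeq2) and 8 fell (median log2 fold change -0.25), 32.0% lower beside 2.98% of all known genes. Sst, the precursor of somatostatin, marks a class of inhibitory interneurons that also make neuropeptide Y. Sst stood at 267, 203 and 246 normalized CPM in the 3 control mice and at 128, 94.5, 79.98, 152 and 86.9 normalized CPM in the 5 knockdown mice. All knockdown mice were lower than all control mice, and knockdown replicates 1 and 4 were the highest of them (log2 fold change -1.14, SE 0.18, adjusted p = 0.000609). Cort, a peptide akin to somatostatin, and Grp, the gastrin-releasing peptide, had log2 fold changes of -1.40 (adjusted p = 0.00116) and -1.70 (adjusted p = 0.00335). The precursor that rose was Igf1, a growth factor that microglia also make (log2 fold change 2.45, adjusted p = 0.00632). Among 27 interneuron class genes 3 rose and 7 fell (4, 2, 4 and 4 without control replicates 2 and 3 and knockdown replicates 2 and 3, respectively). These are 11.1% and 25.9%, beside 9.003% and 2.98% of all known genes. Of the neuropeptide precursors 4% were called higher. Vip, the peptide of another interneuron class, fell (log2 fold change -0.92, adjusted p = 0.00659, and 0.0553 without control replicate 3). Against this direction, Slc32a1, which loads GABA into the vesicles of all GABA neurons, rose (log2 fold change 1.10, adjusted p = 0.00271). Pvalb, the calcium buffer of fast-spiking interneurons, had a log2 fold change of 0.68 (adjusted p = 0.0174, and 0.0677 and 0.0647 without control replicates 1 and 3, respectively, also short of a threshold with library size alone and length offsets). The summed level of this list was 1751, 1407 and 1485 normalized CPM in the 3 control mice and 1419, 1101, 999, 1430 and 1018 in the 5 knockdown mice, and its most abundant gene was Npy in the control mice and Cck, which many excitatory neurons also express, in the knockdown mice. Cck had means of 239 and 401 normalized CPM in the control and knockdown mice and was not called. The interneuron and neuropeptide lists share members, among them Sst and Cck, so their counts are not separate results.

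The cAMP response element, TGACGTCA, which reads the same on both strands, is known from the somatostatin promoter, and it overlapped another searched motif in 0 promoters. It occurred in 1.79% of all 32851 promoters, in a promoter of 3.43% of the 11028 tested genes that have one, and in 4 of the 19 tested list members with a promoter, 1 of them among the 7 called members with one. The promoter of Sst at chr16:23890795-23891094 on the minus strand is shown because Sst is the called precursor with this element, in capitals. In this window the site of Sst lies at chr16:23890885-23890892 and begins 48 bases before the start.
Sst: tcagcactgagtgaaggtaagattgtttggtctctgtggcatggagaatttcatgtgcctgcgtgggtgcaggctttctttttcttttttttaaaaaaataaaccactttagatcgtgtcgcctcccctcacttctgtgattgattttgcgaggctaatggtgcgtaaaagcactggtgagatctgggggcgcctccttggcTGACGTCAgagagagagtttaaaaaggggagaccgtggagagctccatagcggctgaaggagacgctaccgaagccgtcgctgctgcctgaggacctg

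Lists of excitatory neuron genes and of receptor subunits had medians below 0. Called higher were 3.1% of the cortical excitatory genes, 11.1% of the AMPA, NMDA and kainate subunits and 0% of the GABA receptor subunits. The share among all known genes was 9.003%. Called lower in the same order were 9.4%, 27.8% and 7.14%, beside 2.98%. Of 32 cortical excitatory genes 1 rose (0 without control replicate 3; 0 with library size alone) and 3 fell (6 and 5 without knockdown replicates 4 and 5, respectively; 7 with library size alone, a replicate block and DESeq2, 5 with a filter of 10 counts in every mouse and the 8 saline mice alone, 6 with edgeR's exact test), with a median log2 fold change of -0.29, and knockdown replicate 4 had the highest sum of all 8 mice. Neurod1, a neuronal transcription factor, and Crym, a thyroid hormone binding protein of deep layers, had log2 fold changes of -1.57 and -1.42. Mef2c, the most abundant member and an activity-regulated transcription factor, had a log2 fold change of -0.88 (adjusted p = 0.011, and 0.0534 without control replicate 2). For subunits of AMPA, NMDA and kainate receptors, 2 of 18 tested members rose (1, 0, 1, 1 and 1 without control replicates 2 and 3 and knockdown replicates 1, 2 and 5, respectively; 1 with library size alone, a filter of 10 counts in every mouse, the 8 saline mice alone, a replicate block, known genes alone and length offsets) and 5 fell (0, 2, 3, 1, 1 and 2 without control replicates 2 and 3 and knockdown replicates 1, 2, 3 and 5, respectively; 3 with the 8 saline mice alone and length offsets) (median log2 fold change -0.37), and their summed level was 887, 1030 and 954 normalized CPM in the 3 control mice and 851, 615, 669, 938 and 701 in the 5 knockdown mice. Grik1, a kainate receptor subunit, fell (log2 fold change -0.82, adjusted p = 0.0135, and 0.0539 without control replicate 2), while Grin1, the subunit present in every NMDA receptor, rose (log2 fold change 0.81, adjusted p = 0.0144, and 0.0679 and 0.0887 without control replicates 2 and 3, respectively). All 7 metabotropic glutamate receptors lay below 0 and 0 were called in edgeR's quasi-likelihood test (1 with a replicate block, without knockdown replicate 1 and without knockdown replicate 4), with 2 at an unadjusted p under 0.05 and 0 called in DESeq2. The most abundant, Grm5, had a log2 fold change of -0.20 (adjusted p = 0.622). Of all known genes 30.2% had an unadjusted p under 0.05. Of 14 GABA receptor subunits 1 fell (2 with library size alone and with a replicate block, and 4 without knockdown replicate 4), Gabra2 (log2 fold change -0.69, adjusted p = 0.0372, and 0.26, 0.0548, 0.0812, 0.0801 and 0.0583 without control replicate 2 and knockdown replicates 1, 2, 3 and 5, respectively), with a log2 fold change of -0.44 without control replicate 2.

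Synaptic scaffolds, release proteins and ion channels had calls in both directions, and for scaffolds, release proteins and potassium channels the shares called higher, 7.69%, 5% and 4.26%, were below the 9.003% of all known genes. The shares called lower were 11.5%, 5% and 2.13% beside 2.98%, and for sodium, calcium and HCN channels 11.5% were higher and 19.2% lower. For postsynaptic scaffolds, 2 of 26 tested members rose and 3 fell (5, 1 and 5 without control replicates 1 and 2 and knockdown replicate 4, respectively; 5 with library size alone and edgeR's exact test). Homer3 rose (log2 fold change 1.25, adjusted p = 0.00323) and Homer2 fell (log2 fold change -1.32, adjusted p = 0.00667), 2 adaptors that link glutamate receptors to internal calcium stores. Dlgap3, a scaffold of the postsynaptic density, rose (log2 fold change 1.12, adjusted p = 0.007). For vesicle release, 2 of 40 tested members rose and 2 fell (0, 0, 1, 1, 1 and 1 without control replicates 2 and 3 and knockdown replicates 1, 2, 3 and 5, respectively). The release list summed to 8751, 9106 and 7654 normalized CPM in the 3 control mice. In the 5 knockdown mice it summed to 9518, 6802, 6876, 10181 and 6828 normalized CPM. Knockdown replicates 1 and 4 thus lay above the control mice, and knockdown replicates 2, 3 and 5 below them. For the scaffold sums, knockdown replicates 1 and 4 lay within the control range and the others below it. Cplx1, a clamp of vesicle fusion, and Vamp1, a fusion protein, had log2 fold changes of 1.00 and 1.28. For potassium channels, 2 of 47 tested members rose (1 each without control replicates 2 and 3 and knockdown replicates 1, 2, 3 and 5; 1 with library size alone, no filter, a filter of 10 counts in every mouse, the 8 saline mice alone, known genes alone, length offsets and edgeR's exact test) and 1 fell (0, 2 and 7 without control replicate 2 and knockdown replicates 1 and 4, respectively; 4 with library size alone, a replicate block and edgeR's exact test), and Kcnn2, a calcium-activated channel of the afterhyperpolarization, rose (log2 fold change 0.99, adjusted p = 0.00202). For sodium, calcium and HCN channels, 3 of 26 tested members rose and 5 fell (2, 3, 3 and 3 without control replicates 2 and 3 and knockdown replicates 3 and 5, respectively; 3 with length offsets) (median log2 fold change -0.32). Hcn2, a pacemaker channel, rose from 2.46 to 7.63 normalized CPM (log2 fold change 1.63, adjusted p = 0.00205). Cacna2d1 and Cacna1i, subunits of calcium channels, had log2 fold changes of -0.95 and -0.77.

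Immediate early genes, which report recent activity, gave 3 lower (0, 1, 1, 1 and 1 without control replicates 2 and 3 and knockdown replicates 2, 3 and 5, respectively) and 1 higher (3, 0, 0, 3 and 2 without control replicates 1, 2 and 3 and knockdown replicates 4 and 5, respectively; 2 with the 8 saline mice alone, a replicate block and edgeR's exact test, 3 with DESeq2) of 23. The immediate early list summed to 607, 654 and 577 normalized CPM in the 3 control mice. In the 5 knockdown mice it summed to 612, 456, 456, 661 and 464 normalized CPM. Knockdown replicates 2, 3 and 5 lay below the control mice, knockdown replicate 1 within their range and knockdown replicate 4 above it. Egr2 and Fos, transcription factors induced by activity, both fell. Egr2 had a log2 fold change of -1.06 (adjusted p = 0.0192, and 0.0992 without control replicate 2). Fos had a log2 fold change of -0.86 (adjusted p = 0.0419, and 0.0866, 0.0763, 0.105, 0.0905, 0.0673 and 0.0876 without control replicates 1, 2 and 3 and knockdown replicates 2, 3 and 5, respectively). Guidance molecules and their receptors, from slits to ephrins, gave 5 lower of 51 (0, 2, 3, 2 and 9 without control replicates 2 and 3 and knockdown replicates 2, 3 and 4, respectively; 8 with library size alone, 3 with length offsets). Of the guidance list 9.80% were called lower and 0% higher, beside 2.98% and 9.003% of all known genes. Nrp2, a semaphorin receptor, had a log2 fold change of -0.84 (adjusted p = 0.0133, and 0.0744 without control replicate 2).

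All 79 cytosolic ribosomal protein genes lay above 0 (median log2 fold change 0.41, and 0.21 with length offsets) and 74 had an unadjusted p under 0.05, while 6 passed the threshold for a call (13 without knockdown replicate 4; 10 with a replicate block, 1 with length offsets), 7.59% beside 9.003% of all known genes. An unadjusted p under 0.05, in either direction, was found for 30.2% of all known genes. The summed level of the ribosomal list was 93311, 82748 and 85514 normalized CPM in the 3 control mice and 111866, 128368, 125380, 96208 and 112678 in the 5 knockdown mice, with every knockdown mouse above the controls. Many of these genes have near-identical processed copies, so their levels are uncertain. Rps10 had a log2 fold change of 0.78 (adjusted p = 0.00124, and short of a threshold with length offsets). Of 78 mitochondrial ribosomal proteins 5 rose (3 each without control replicates 2 and 3; 2 with library size alone and length offsets, 3 with a replicate block and known genes alone), Mrps6 among them (log2 fold change 1.31, adjusted p = 0.00089), and their median was -0.07. For nuclear genes of the respiratory chain and ATP synthase, 4 of 75 tested members rose (1 each without control replicates 2 and 3) and 2 fell (4, 1 and 1 without control replicates 1 and 3 and knockdown replicate 3, respectively; 5 with library size alone, 4 with known genes alone, 7 with length offsets) (median -0.06). Called higher were 6.41% of the mitochondrial ribosomal proteins and 5.33% of these respiratory chain genes, beside 9.003% of all known genes. Of the respiratory chain genes 2.67% were called lower, beside 2.98%. Cox5a, a subunit of cytochrome oxidase, had a log2 fold change of 1.86 (adjusted p = 0.00461). Ndufb4, a subunit of complex I, had a log2 fold change of -0.66 (adjusted p = 0.00156).

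Among the mitochondrial carriers of the SLC25 family, 5 of 39 tested members rose (3 and 2 without control replicates 2 and 3, respectively; 3 with length offsets) and 1 fell, 12.8% and 2.56% beside 9.003% and 2.98% of all known genes. Slc25a18, a glutamate carrier of astrocytes, rose (log2 fold change 1.22, adjusted p = 0.00532) beside Slc25a39, and Slc25a12 was the carrier that fell. Of 48 proteasome subunits 1 rose (2 with edgeR's exact test and without control replicate 1) and 1 fell: the activator Psme1 had a log2 fold change of 0.85 (adjusted p = 0.0216, and 0.0937, 0.11 and 0.0523 without control replicates 2 and 3 and knockdown replicate 3, respectively, also short of a threshold with length offsets), and the assembly chaperone Psmg1 had a log2 fold change of -0.65 (adjusted p = 0.016, and 0.0599 without control replicate 3). For cholesterol synthesis, 2 of 28 tested members rose (1, 1 and 0 without control replicates 1, 2 and 3, respectively; 1 with length offsets) and 2 fell (1 each without control replicate 3 and knockdown replicates 2, 3 and 5); Hsd17b7, an enzyme of the late pathway, fell (log2 fold change -1.07, adjusted p = 0.00458). The list labelled fascin and actin-bundling proteins also holds other actin regulators. Of its 27 tested members 2 rose (0, 0, 1, 4 and 1 without control replicates 2 and 3 and knockdown replicates 3, 4 and 5, respectively) and 1 fell (2 without knockdown replicate 4). The count of higher members was 1 with library size alone, a filter of 10 counts in every mouse and known genes alone. It was 4 with a replicate block and 0 with length offsets. Called higher were 2.08% of the proteasome list, 7.14% of the cholesterol list and 7.41% of the actin list, beside 9.003% of all known genes. Called lower in the same order were 2.08%, 7.14% and 3.70%, beside 2.98%. Arpc5, a subunit of the complex that branches actin, fell (log2 fold change -0.65, adjusted p = 0.00126). The members of the actin list that rose were Pfn1 and Arpc1b, and none of these called genes encodes an actin-bundling protein. Fscn1, the fascin gene that the study followed, stood at 53.5, 33.8 and 37.1 normalized CPM in the control mice and at 53.9, 39.3, 38.2, 47.0 and 41.9 in the knockdown mice. The ranges of Fscn1 overlapped, with control replicate 1 and knockdown replicate 1 the highest of their groups, and no change was called (log2 fold change 0.09, SE 0.20, adjusted p = 0.785). Under morphine its log2 fold change was -0.94 (adjusted p = 0.0077), and the difference between the treatments had an adjusted p of 0.141. Gapdh, a glycolytic enzyme used as a reference gene, was not called either (log2 fold change -0.25, adjusted p = 0.137).

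Called genes differed in transcript length. The longest annotated transcript had a median of 2670 bases among the 1275 higher genes, 4614.5 among the 422 lower genes and 3523 among 12463 uncalled genes with a length. In 4 classes of equal size, from the shortest transcripts to the longest, 13.5, 10.9, 7.91 and 3.67% were called higher and 1.95, 1.92, 2.46 and 5.59% lower. With the assembled loci left out, 849 known genes were higher and 529 lower. With an offset for length in each mouse added to that, an alternative chosen after seeing the data, 762 were higher and 492 lower, of which 744 and 341 were also called with neither change. The assembled loci went the other way from known genes: of 4382 tested, 80 rose and 1322 fell (median log2 fold change -0.59). Of 282 known lncRNA genes, which are counted apart from the known genes, 43 rose and 9 fell. These are 15.2% and 3.19%, beside 9.003% and 2.98% of known genes. RNA integrity is not given in the labels, and its part in these differences was not tested.

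**Figure D5:**
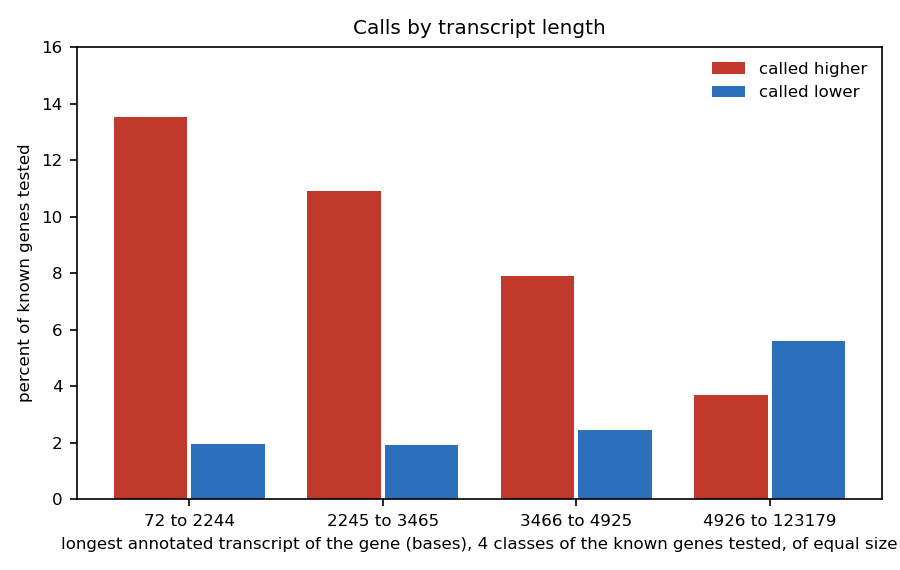
Percent of tested known genes called higher (red) and lower (blue) in 4 classes of equal size by the length in bases of the longest annotated transcript. The share called higher falls from 13.5% in the shortest class to 3.67% in the longest, while the share called lower is 5.59% in the longest.

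The same knockdown was made in morphine mice, which are different animals, so that its values can be set beside those of the saline mice. Of the 1275 genes higher in saline mice, 999 had the same sign under morphine (78.4%, beside 54.8% of all known genes above 0 there), 275 were called higher there and 5 lower. These 275 are 21.6% of the higher genes under saline and 57.7% of the 477 under morphine, which are 3.368% of the known genes tested. Of the 422 lower genes, 364 had the same sign (86.3%), 76 were called lower there and 4 higher. These 76 are 18.0% of the lower genes under saline and 42.2% of the 180 under morphine, which are 1.271% of the known genes. The median log2 fold change under morphine was 0.39 for the higher set, -0.37 for the lower set and 0.04 for all known genes. Kdm7a had a log2 fold change of -0.67 under morphine (adjusted p = 0.0506), and the difference between the treatments was 0.10 (adjusted p = 0.945). The log2 fold changes of the microglial genes Cst7 and Trem2 under morphine were 3.07 and 2.14. Those of Atf3 and Chac1 were 2.58 and 1.33, beside 3.27 and 2.24 under saline. Of the integrated stress response list 8 genes were called higher under morphine, 22.2% beside 3.368% of all known genes, and 17 under saline, 47.2% beside 9.003%. The median of the folding factors of the endoplasmic reticulum was 0.01 under morphine and 0.35 under saline, with 1 higher and 1 lower under morphine. These differences between lists were not tested. Npy, Sst and Agt had log2 fold changes of -1.22, -0.99 and -2.74 under morphine. The difference between treatments passed the test in 16 known genes, all of them called in saline mice, and 1677 of the 14162 known genes, 11.8%, had an unadjusted p under 0.05 for it. Tmem70 had the smallest adjusted p, with a log2 fold change of 1.56 under saline and -0.61 under morphine (adjusted p of the difference = 0.00705). Creld2 went from 1.14 to -0.63 (adjusted p = 0.0182), and Slc25a12 from -1.46 to 0.61 (adjusted p = 0.023). The red cell genes Hba-a2 and Alas2, lower under saline, had log2 fold changes of 0.34 and 0.06 under morphine; their differences had adjusted p of 0.128 and 0.188.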

How the data were processed

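The authors mapped full-length cDNA reads of single mice to mm10 with minimap2 and deposited the count of reads assigned to each gene, without normalization. The deposited CPM are these counts, which the authors divided by each mouse's column total; they served only to check the counts. Every column belonged to a sample.

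The counts went through edgeR 4.0.16 in R 4.3.3: filterByExpr on the 4 groups, TMM factors, and a quasi-likelihood model of all 16 mice with 1 coefficient per group. Each adjusted p is from this edgeR test, Benjamini-Hochberg adjusted over 18826 tested entries, assembled loci included. A call needed an adjusted p below 0.05 and a 1.5-fold change. The difference between treatments was the interaction in the same model. DESeq2 1.42.0 served as an alternative, Python 3.11.15 for promoters and figures, and the scripts were tested on simulated counts.

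Named were Kdm7a, Fscn1 and Gapdh; the 12 called genes of each direction with the smallest adjusted p; and, in each of 43 lists, up to 4 called members per direction, or the most abundant member where none was called. Symbols on more than 1 entry were left out, some genes that this rule names are not reported here, and Ctsd was added after its values were seen. The members and lists were chosen with earlier results of these data known.

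Each replicate is a separate mouse, and equal replicate numbers do not mark a pair: across genes, deviations of same-numbered control and knockdown mice from their group means correlated at 0.12, -0.08 and 0.05. Reads carry no molecular identifiers, so count-based limits cover counting error only. No strand is stated for the counting, so overlapping and antisense genes cannot be told apart.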

Additional observations from a re-analysis of the deposited data

Results flagged for a closer look

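Single mice lay far from the other 4 of the Kdm7a-shRNA + Saline group in 10 of 210 sets of values, those of the named genes and the list sums, tested by Dixon's ratio, whose critical value for 5 samples is 0.71; chance gives about 1 in 20. All values here are normalized CPM. Agt was at 0.474 in knockdown replicate 3 and between 1.21 and 1.38 in the others, so the lowest mouse of a gene that fell in all 5 stood apart. Aen, a p53 target, was at 40.27 in knockdown replicate 4 against 70.4 to 78.6. Cux1, a transcription factor of upper layers, reached 48.23 in knockdown replicate 3, where the others held 35.7 to 36.1. Gria2, an AMPA receptor subunit, was at 362.8 in knockdown replicate 4 against 179 to 232. Dlgap3 was at 32.4 in knockdown replicate 1 and at 16.8 to 20.8 elsewhere. Rims2, a protein of the release site, had 21.93 in knockdown replicate 4 compared with 11.0 to 13.2. Among immediate early genes, Ier2 stood at 5.86 in knockdown replicate 1 (others 7.83 to 8.21) and Egr2 at 10.48 in knockdown replicate 2 (others 8.54 to 8.999). Ntng1, a netrin relative, was at 5.569 in knockdown replicate 3 against 7.93 to 8.44. Cyc1, a subunit of respiratory complex III, was at 263.2 in knockdown replicate 4 against 222 to 227. Knockdown replicate 4 was the distant mouse in 4 of these 10 genes.

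For 6 named genes the knockdown difference itself differed between the treatments by edgeR's interaction test, given here as the morphine minus the saline log2 fold change. Tmem70 differed by -2.17 (adjusted p = 0.00705), Creld2 by -1.772 (adjusted p = 0.0182) and Fez2 by -1.364 (adjusted p = 0.0394). For Pdgfa the difference was -1.317 and for Poldip2 -0.9973 (adjusted p = 0.0472 each). These 5 genes rose under saline and lay below 0 under morphine. Slc25a12, which fell under saline, differed by 2.077 (adjusted p = 0.0230) and lay above 0 under morphine.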

How the results depend on the processing

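Every named gene that was called, Kdm7a included, kept its direction under all alternatives run. Kdm7a ranged from -0.80 to -0.72 when single mice were left out, and without Ctrl + Saline replicate 3 it was -0.79 with an adjusted p of 0.0533, short of the threshold; fewer control mice were then compared. Over the other alternatives its adjusted p ran from 0.00135 to 0.0432. Leaving out single mice gave 467 to 1586 known genes higher and 230 to 620 lower. With the replicate number as a block, which treats same-numbered mice as a pairing, Kdm7a was at -0.78 (adjusted p = 0.0266), 1369 genes were higher and 492 lower. Library size alone raised the lower genes to 745, adjusted p alone raised them to 648, known genes alone reduced the higher genes to 849, and length offsets added to known genes alone, chosen after seeing the data, reduced them to 762; for the scaling and length settings the cause was not tested. The remaining settings gave 875 to 1511 higher and 403 to 491 lower genes. Among the other named genes, 57 lost their call without Ctrl + Saline replicate 3, 56 without Ctrl + Saline replicate 2, 31 with length offsets and 17 with library size alone. Genes with few control reads, such as Ecel1, Steap4 and Ccl3, have fold changes limited by depth.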
